A study of Mus musculus with 3 samples.

Results

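The genes described here encode the contractile machinery and the actin cytoskeleton of the cell: actins, myosin heavy and light chains, their regulators, actin-binding and actin-anchoring proteins, intermediate filament proteins, troponins and the transcription factors of this programme. They were taken from a list of 59 symbols, in which smooth muscle, non-muscle and striated muscle isoforms stood side by side, and 58 of the 59 were measured, out of 19938 genes named on the array. A gene counted as measured when at least 1 probe set carried its symbol and no other, and the probe set with the highest mean represented it. Actg1, the gene of cytoplasmic gamma-actin, had only probe sets annotated to Actg1 and Actb together and has no value of its own.

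The cells came from adult male CD-1 mice carrying the transgene Tg(Meis1-EGFP)FO156Gsat, a bacterial artificial chromosome that places green fluorescent protein under Meis1 regulatory sequence. Glomeruli were prepared from kidney cortex and dissociated, and fluorescent cells were sorted. The labels give the source as glomerular and extraglomerular mesangium, and each of the 3 samples was 1 adult kidney with no pooling. Sorting followed the activity of the transgene, so any glomerular or attached arteriolar cell in which it was active could have entered the samples. All 3 samples carried the transgene and form 1 group without a control population. The labels do not name separate mice, so the spread between samples may be partly technical.

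Mesangial cells lie between the capillary loops of the glomerulus and resemble smooth muscle cells and pericytes. In smooth muscle, calcium and calmodulin activate myosin light chain kinase, which phosphorylates the regulatory light chain so that myosin pulls on actin, and myosin phosphatase reverses that step. Striated muscle uses other actin and myosin genes and switches contraction through the troponin complex. Serum response factor, with partners of the myocardin family, drives many genes of both programmes through a DNA element called the CArG box.

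Values are log2 probe set signals as deposited, given for samples 1, 2 and 3 in that order, with the mean ± SD over n = 3. Each array was set against a silent-gene threshold, the 95th percentile of its 1267 probe sets for 4 gene families, at 7.48, 7.46 and 7.41. The families were keratin-associated proteins and the olfactory, trace amine and vomeronasal receptors. They were taken as largely silent in kidney, which was not tested gene by gene. A gene was called above when it passed on all 3 arrays, and a raised threshold added 1. Probe sets differ in affinity, so each gene was read against the threshold and against itself in the other arrays, and the values do not rank genes by amount. Over the whole table, 40.2% of probe sets held 1 identical value on all 3 arrays, so an SD of 0 is no measure of precision. The array medians were 7.53, 7.56 and 7.54. In these bulk samples fewer cells of a type and less RNA per cell cannot be told apart.

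The non-muscle and shared genes of the set were above the threshold, the smooth muscle genes divided, and most striated muscle genes were not above. Of the 58 measured genes, 40 were above the threshold, where 58.0% of the 18687 named genes outside the silent families were, and 29 passed the raised threshold, where 32.7% of named genes did. All 11 measured non-muscle genes and all 15 genes shared between muscle types or acting as regulators were above, and of these 10 and 13 passed the raised threshold. Of the 11 smooth muscle genes 7 were above, a share of 63.6% that lies near that of all named genes, and 5 passed the raised threshold. Of the 20 striated muscle genes 7 were above, a share of 35.0%, and 1 passed the raised threshold. Tagln3, a transgelin of neurons, had 7.42 on each array and was not above. Because the genes were chosen with earlier results of these data known, the counts are given as a description without a test.

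**Figure D1:**
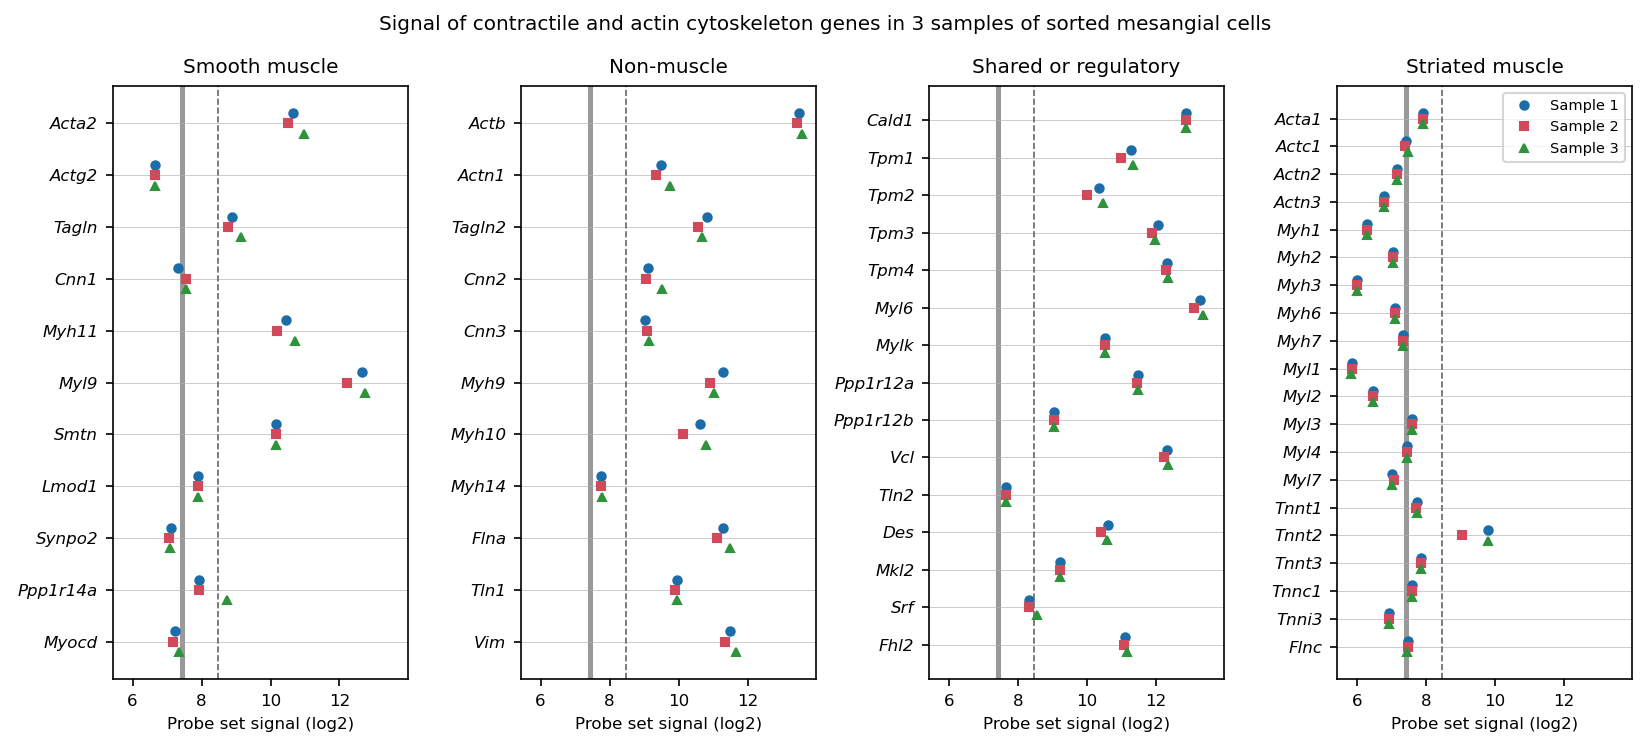
Log2 probe set signal on the horizontal axis for the measured smooth muscle, non-muscle, shared and striated muscle genes, with 1 point for each of the 3 samples, the silent-gene thresholds as a grey band and the highest threshold raised by 1 as a dashed line. The striated muscle genes lie around the grey band apart from Tnnt2, and the shared and non-muscle genes lie to its right.

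**Figure D2:**
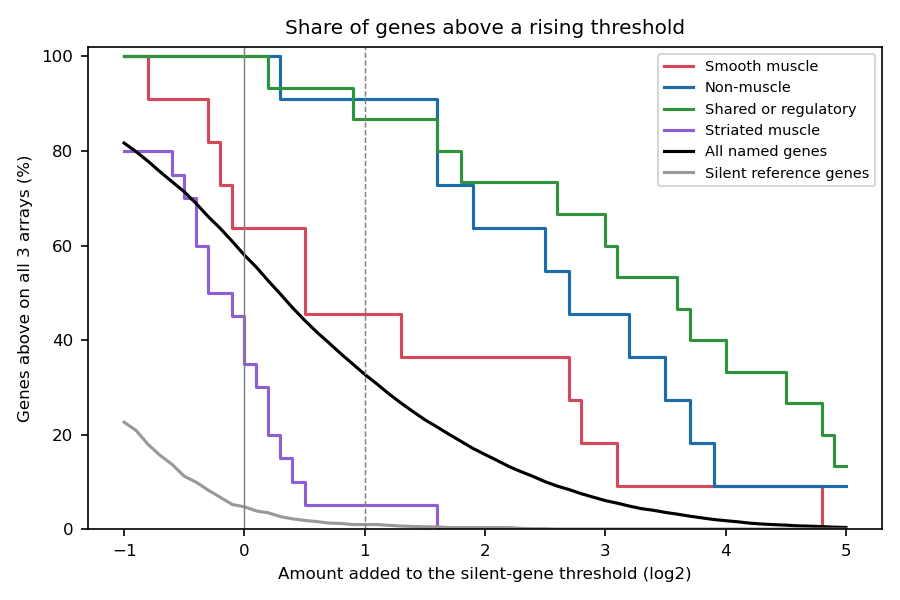
Percentage of genes above on all 3 arrays, on the vertical axis, as the amount on the horizontal axis (log2) is added to each array's threshold, for 4 gene classes, all named genes and the silent reference genes. With 1 added, 29 of the 58 genes remain above, among them 13 of 15 shared and 1 of 20 striated muscle genes.

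Cell type markers bore on the label. All 7 mesangial markers, including the integrin gene Itga8 and the receptor gene Pdgfrb, passed the raised threshold, with means from 9.39 to 12.96. The lowest mean is that of Meis1, whose regulatory sequence drove the sort, so its value does not bear on the label. For scale, 58.0% of the named genes outside the silent families were above and 32.7% passed the raised threshold. All 8 endothelial markers were above, and they divided. The 4 that passed the raised threshold were Tek, Ehd3, Emcn and Flt1, with means of 10.78, 10.42, 10.38 and 8.82. Pecam1, Cdh5, Kdr and Tie1 lay nearer background, with means from 7.55 to 7.66. Of 6 measured podocyte markers 4 were above and 1 passed the raised threshold, Wt1 at 10.15 ± 0.08. Of 6 proximal tubule and 6 leukocyte markers 2 each were above and none passed the raised threshold. Of 5 fibroblast markers 4 were above and 3 passed the raised threshold. Renin cell markers were not analysed here, and whether any listed gene separates mesangial cells from arteriolar smooth muscle cells was not tested. The part of these cells in the contractile values was not tested.

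Among the actins, which polymerise into the thin filament, the smooth muscle isoform Acta2 had 10.64, 10.50 and 10.98 (10.71 ± 0.25), at least 3.04 above the threshold of its array. Actb, the cytoplasmic beta-actin, had 13.49, 13.43 and 13.59 (13.50 ± 0.08). Both were lowest in sample 2 and highest in sample 3. The gamma isoform of visceral smooth muscle, Actg2, had 6.65 on each array, a value that 18.9% of the silent probe sets reached or passed. Skeletal Acta1 had 7.93 on each array and was above by 0.45, with 2.21% of silent probe sets at or over it, and cardiac Actc1, at 7.44, 7.40 and 7.49, was not above on all arrays. Actin genes are close in sequence, and how far a probe set of one reads RNA of another was not tested.

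The 4 probe sets shared by Actg1 and Actb had means from 10.89 to 11.81 and all passed the raised threshold. The brightest had 11.69, 11.50 and 12.25 (11.81 ± 0.39). On each of the 4, sample 3 was highest and sample 2 lowest, and the gap between those samples exceeded the one on the probe set of Actb alone. These values cannot be assigned to either gene.

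Myosin heavy chains form the motor. The smooth muscle heavy chain Myh11, a marker of differentiated smooth muscle, had 10.44, 10.19 and 10.70 (10.44 ± 0.25). The non-muscle chains Myh9 and Myh10 had 11.28, 10.92 and 11.03 (11.08 ± 0.19) and 10.61, 10.14 and 10.78 (10.51 ± 0.34). All 3 genes were lowest in sample 2 on these probe sets, but the other probe set of Myh9, also above the threshold, had 7.88, 8.05 and 8.16 and was lowest in sample 1. Myh14, the remaining non-muscle chain, had 7.76, 7.76 and 7.77 and lay within 1 of the threshold. None of the striated chains Myh1, Myh2, Myh3, Myh6 and Myh7 was above, with means from 6.02 for Myh3 to 7.33 for Myh7.

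Light chains bind the neck of the myosin head. The regulatory light chain gene Myl9 had 12.65, 12.22 and 12.73 (12.53 ± 0.28), and Myl6, the essential light chain of smooth muscle and non-muscle myosin, had 13.27, 13.12 and 13.37 (13.26 ± 0.13). Myl6 has 6 probe sets, whose means ran from 12.83 to 13.26, and each was lowest in sample 2. The striated light chains Myl1, Myl2, Myl4 and Myl7 were not above, with means from 5.84 to 7.44, and Myl3 passed by 0.13 (7.61, 7.60 and 7.60).

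The genes of the set for the kinase, the phosphatase-targeting subunits and the phosphatase inhibitor that act on light chain phosphorylation were above. For scale, 58.0% of named genes outside the silent families were. Mylk, the light chain kinase, had 10.54 on each array. Ppp1r12a, which targets the phosphatase to myosin, had 11.49, 11.45 and 11.49 (11.47 ± 0.02), and its relative Ppp1r12b had 9.06 on each array. The 7 probe sets of Ppp1r12b ranged in mean from 7.88 to 9.06, all above the threshold and 3 past the raised one. Ppp1r14a, the smooth muscle inhibitor of that phosphatase, had 7.91, 7.91 and 8.73 (8.19 ± 0.47). Only sample 3 passed the raised threshold for Ppp1r14a, while samples 1 and 2 shared a value near background.

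Most genes of actin-binding proteins that steady the filament or restrain myosin were above, where 58.0% of named genes outside the silent families were. Cald1, caldesmon, had 12.87, 12.87 and 12.88 (12.87 ± 0.01). The transgelin gene Tagln, an early smooth muscle marker, had 8.87, 8.76 and 9.14 (8.92 ± 0.19), and its widely expressed relative Tagln2 had 10.83, 10.58 and 10.69 (10.70 ± 0.13). Calponin 1, Cnn1, which marks contractile smooth muscle, had 7.31, 7.54 and 7.54 (7.46 ± 0.13) and passed on arrays 2 and 3 but not on array 1. The non-smooth-muscle calponins Cnn2 and Cnn3 passed the raised threshold, at 9.10, 9.04 and 9.52 (9.22 ± 0.26) and at 9.03, 9.08 and 9.14 (9.08 ± 0.05).

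All 4 tropomyosin genes, whose coiled coils run along actin, passed the raised threshold, where 32.7% of named genes outside the silent families did. Tpm1 had 11.27, 11.01 and 11.34 (11.21 ± 0.17) and Tpm2 had 10.35, 10.01 and 10.48 (10.28 ± 0.24). Tpm3 had 12.06, 11.90 and 11.97 and Tpm4 12.34, 12.30 and 12.36. Sample 2 was lowest for each of the 4 on these probe sets. The other 3 probe sets of Tpm3, with means from 8.61 to 9.37, did not share one order: 1 was lowest in sample 2 by 0.01, 1 was highest there (8.61, 8.63 and 8.61) and 1 had the same value on all arrays. Tropomyosin genes are spliced into muscle and non-muscle forms, which gene-level values do not separate.

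Of 3 further smooth muscle actin-associated genes, smoothelin (Smtn) had 10.17 and leiomodin 1 (Lmod1) 7.91, each identical on all arrays, so that Lmod1 lay 0.43 above the threshold. Synpo2, a Z-disc and dense-body protein gene, had 7.12, 7.07 and 7.07 and was not above. The smooth muscle set therefore held 5 genes past the raised threshold, which were Acta2, Tagln, Myh11, Myl9 and Smtn, and 2 nearer background, Lmod1 and Ppp1r14a. The 4 that were not above were Actg2, Cnn1, Synpo2 and Myocd.

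Of the 8 genes for proteins that crosslink actin or tie it to the membrane, 6 were above. The share among all named genes outside the silent families was 58.0%. The filamin gene Flna had 11.29, 11.12 and 11.50 (11.30 ± 0.19), whereas the muscle filamin Flnc had 7.49, 7.49 and 7.44 and exceeded the threshold by 0.01. The crosslinker Actn1 had 9.50, 9.35 and 9.74 (9.53 ± 0.20), and the striated alpha-actinins Actn2 and Actn3, at 7.16 and 6.80 on each array, were not above. Vcl, vinculin of the focal adhesion, had 12.32, 12.23 and 12.35 (12.30 ± 0.06). The integrin activator Tln1 had 9.96, 9.89 and 9.96 (9.94 ± 0.04), and Tln2 had 7.65 on each array, within 1 of the threshold. Of the intermediate filament genes, Vim had 11.50, 11.34 and 11.66 (11.50 ± 0.16) and Des, the muscle-type filament also used as a mesangial marker, had 10.62, 10.42 and 10.60 (10.55 ± 0.11).

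Cardiac troponin T, Tnnt2, was the 1 striated muscle gene past the raised threshold, with 9.80, 9.04 and 9.80 (9.54 ± 0.44). Samples 1 and 3 lay close together, and sample 2 was lower than sample 1 by 0.76 and than sample 3 by 0.77. Its partners in the cardiac troponin complex did not share this distance from background: Tnnc1 had 7.60 on each array, above by 0.12, and Tnni3 had 6.93 and was not above. The skeletal troponin T genes Tnnt1 and Tnnt3 had 7.73 ± 0.02 and 7.87. Of 8 other skeletal and cardiac muscle markers, Ckm, Myod1 and Mb were above and none passed the raised threshold. Over all named genes outside the silent families the shares were 58.0% and 32.7%.

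Of the transcription regulators, Srf, the DNA-binding partner, had 8.32, 8.32 and 8.55 (8.40 ± 0.14). Its coactivator Mkl2, named Mrtfb in RefSeq, had 9.22 on each array, and its 3 probe sets had means from 8.26 to 9.22. Fhl2, a LIM-domain cofactor, had 11.12, 11.09 and 11.18 (11.13 ± 0.05). Myocd, the coactivator most closely tied to smooth muscle, had 7.24, 7.18 and 7.33 and was not above on any array, with 7.18% of silent probe sets at or over its mean.

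A list of 65 further genes act on actin and myosin, among them actin nucleators, severing and capping proteins, and adhesion adaptors. Of its 60 measured members 59 were above and 49 passed the raised threshold. Of the named genes outside the silent families 58.0% were above and 32.7% passed the raised threshold. The formin gene Diaph3, at 5.95 on each array, was the 1 not above. The 6 with the largest SD among those above were Pdlim5 at 9.28, 9.60 and 10.03, Lasp1 at 10.32, 9.91 and 10.44, Cap1, Lpp, Actn4 and Actr3, with SDs from 0.23 to 0.37. Sample 2 was lowest in 5 of these 6, the exception being Pdlim5.

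Where the 3 samples had different values, sample 2 was the lowest for nearly all genes of the set. Among the 40 genes above the threshold, 9 had 1 value on all arrays, 9 had 2 values and 22 had 3 different values. Flnc, with 2 values, was lowest in sample 3. Sample 2 was lowest in 21 of those 22, Cnn3 being the exception, and sample 3 was highest in 18. Over all 3218 named genes above the threshold with 3 different values, sample 2 was lowest in 38.9% and sample 3 highest in 40.1%. The order sample 2, sample 1, sample 3 held for 17 of the 22 and for 19.0% of those named genes. This pattern was noticed in the data, and 3 samples give no test of it.

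**Figure D3:**
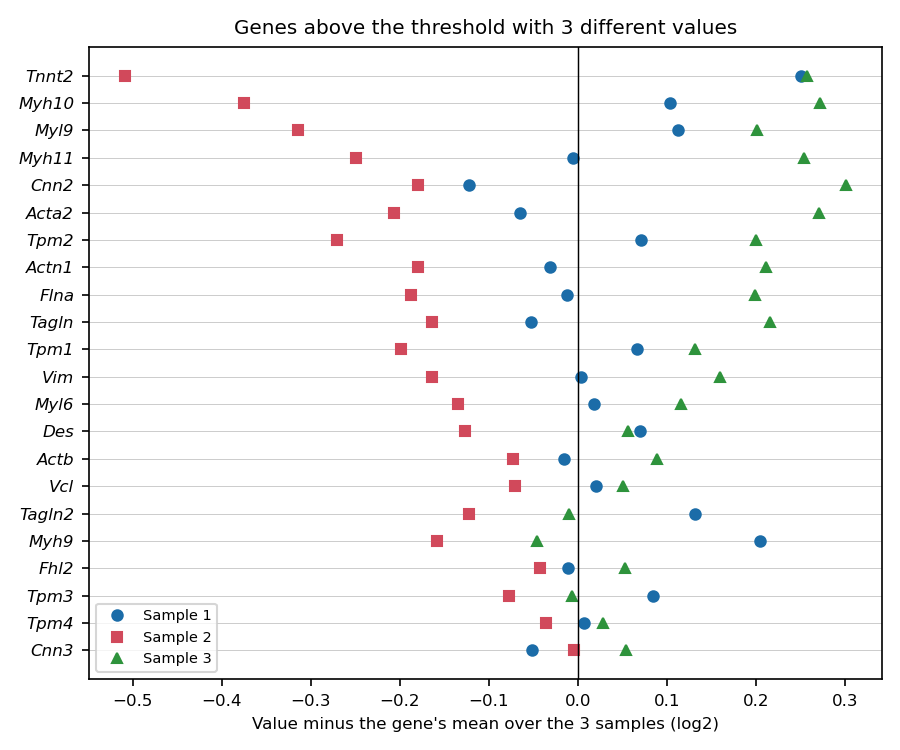
Value in each sample minus the gene's mean over the 3 samples (log2, horizontal axis) for the 22 genes above the threshold with 3 different values, sorted by the difference between samples 3 and 2. Sample 2 is the leftmost point for every gene except Cnn3.

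The differences were small for most genes. The value in sample 3 minus that in sample 2 had a median of 0.33 over the 22 genes, with a range from 0.06 for Cnn3 to 0.77 for Tnnt2, against a median of 0.03 over the 3218 named genes. It was over 0.3 in 12 of the 22 and in 10.8% of the named genes. Of the 40 genes above the threshold, 5 had a range over 0.5, which were Ppp1r14a, Tnnt2, Myh10, Myl9 and Myh11, where 4.34% of all named genes above the threshold had one. Without sample 2 the count was 1, and without sample 3 it was also 1.

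The median deviation from the gene mean in sample 2 was -0.21 over the 7 smooth muscle genes above the threshold, -0.16 over the 11 non-muscle genes and -0.04 over the 15 shared genes. In sample 3 it was 0.22, 0.09 and 0.03. Over the 7 striated muscle genes above the threshold it was 0 in both samples. A gene with 1 value on all arrays has a deviation of 0, which draws a median towards 0. Such genes numbered 2 in the smooth muscle, 0 in the non-muscle, 3 in the striated and 4 in the shared class. With 3 different values, sample 2 was lowest in 4 of 4 smooth muscle, 8 of 9 non-muscle and 8 of 8 shared genes. The 1 striated gene with 3 different values, Tnnt2, was also lowest there. Among the 59 regulators above the threshold the median deviation was -0.03 in sample 2 and 0.03 in sample 3. Sample 2 was lowest in 21 of the 33 regulators with 3 different values. The mesangial markers did not run that way, with a median deviation of 0.03 in sample 2 and 0.01 in sample 3, and none of the 3 with different values was lowest in sample 2. For endothelial markers the medians were -0.01 and 0.03, with 2 of 3 lowest in sample 2, and for fibroblast markers 0.08 and -0.04. For podocyte markers they were -0.03 and 0.04, with 1 of 2 lowest in sample 2, and for leukocyte markers 0.03 and -0.04. Over the 2 proximal tubule markers above the threshold the medians were 0.05 in sample 2 and -0.10 in sample 3. Of these the transporter gene Slc34a1 had 8.24, 8.25 and 7.96, lowest in sample 3, and Slc5a2 had 7.81 on each array. The proximal tubule gene Kap, not above on all arrays, had 8.44, 8.51 and 7.17, lower in sample 3 and by a larger gap to sample 2 than any contractile gene above the threshold showed. The part of cell make-up or of array processing in the order of the samples was not tested.

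**Figure D4:**
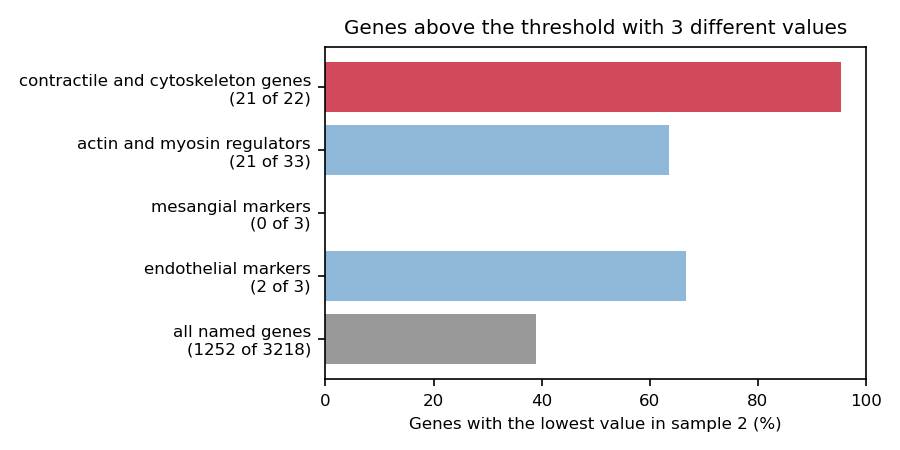
Percentage of genes whose lowest value fell in sample 2 (horizontal axis), among genes above the threshold with 3 different values, by gene list, with the counts beside each bar. The bar of the contractile and cytoskeleton genes stands for 21 of 22 genes and the bar of all named genes for 38.9%.

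At least 1 gene in each of the 4 classes carries the element that serum response factor binds. A CArG box, here a pair of C, 6 bases that are each A or T, and a pair of G, reads as the same motif on both strands, and it was searched in the RefSeq promoter windows of the mouse assembly GRCm38.p6, from 250 bases before to 50 after each transcription start. Windows were matched for 51 of the 59 genes, and those of Actg2, Tagln, Myh11, Myocd, Actb, Actn3, Tnnt3 and Tln2 were not analysed here. Of the 51 genes 11 held at least 1 box, against 1.81% of the 27025 genes with a window. Of the 7 smooth muscle genes with a window only Myl9 held a box, and of the 11 non-muscle genes Actg1 and Cnn2. Of the 18 striated genes with a window Acta1, Actc1, Myl3 and Myl7 held one. Of the 14 shared genes Myl6, Vcl, Srf and Fhl2 did. A match is a description of these letters and not a bound site. Many CArG elements depart from the strict form, and with 1 mismatch allowed 24 of the 51 genes held a match, where 23.8% of all genes did.

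Of the 10 measured genes with a strict box, 8 were above the threshold and 5 passed the raised one. Among all named genes outside the silent families, 58.0% were above and 32.7% passed the raised one. The element was thus present in genes at different distances from the threshold. The stretches below show it across that range. They are printed 5′ to 3′ on the gene's strand with the CArG box in capitals, and end before the transcription start. Myl9 and Cnn2, with single boxes, and Myl6, at 1 of its 2 annotated starts, passed the raised threshold. Acta1 was above by less than 1 on each array. Srf, with 2 boxes in tandem, was above by less than 1 in samples 1 and 2 and passed the raised threshold in sample 3. Actc1 and Myl7 were not above.
Myl9, chr2:156775278-156775337, plus strand: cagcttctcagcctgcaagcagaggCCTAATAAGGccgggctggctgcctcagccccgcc
Cnn2, chr10:79988519-79988578, plus strand: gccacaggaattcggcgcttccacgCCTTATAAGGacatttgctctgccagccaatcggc
Myl6, chr10:128493025-128493084, minus strand: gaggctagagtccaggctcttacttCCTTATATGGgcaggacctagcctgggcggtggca
Srf, chr17:46556190-46556269, minus strand: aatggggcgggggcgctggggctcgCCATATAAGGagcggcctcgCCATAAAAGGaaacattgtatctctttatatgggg
Acta1, chr8:123894814-123894873, minus strand: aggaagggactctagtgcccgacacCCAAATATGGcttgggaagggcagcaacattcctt
Actc1, chr2:114052888-114052947, minus strand: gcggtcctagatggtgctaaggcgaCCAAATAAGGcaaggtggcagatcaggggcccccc
Myl7, chr11:5898809-5898868, minus strand: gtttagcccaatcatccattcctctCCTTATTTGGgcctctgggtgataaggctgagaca

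**Figure D5:**
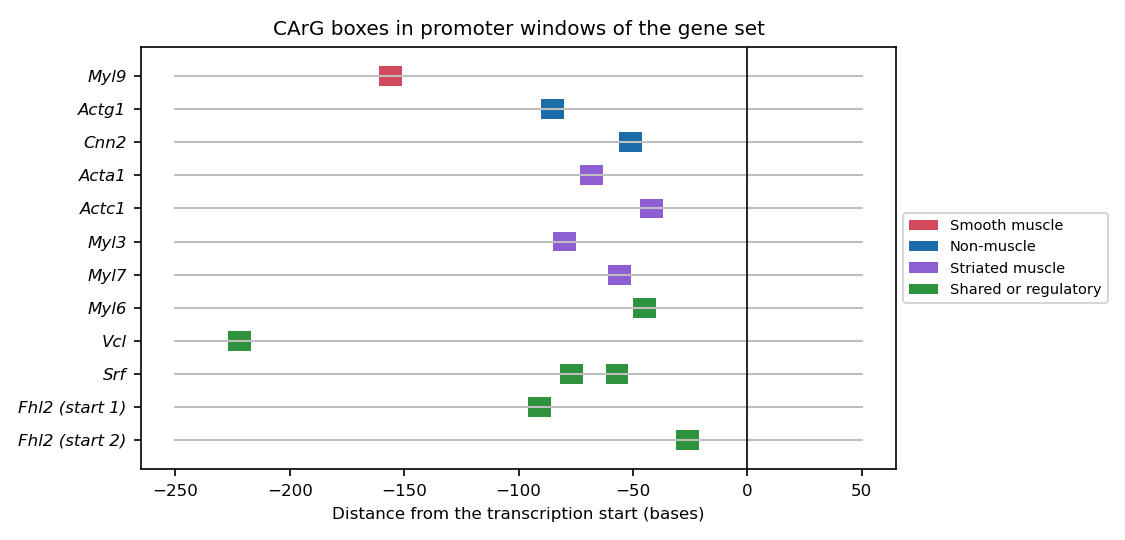
Position of the 13 CArG boxes (coloured bars) in the promoter windows of 11 genes, as distance in bases from the transcription start, coloured by gene class, with 1 line for each window that holds a box. All 13 lie upstream of the start, with first bases from position -227 to position -31.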

How the data were processed

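Total RNA from sorted cells was amplified once (WT-Ovation Pico), labelled with biotin and hybridised to 1 Affymetrix mouse gene array for each sample, per the labels. The log2 probe set signals deposited by the authors come from Affymetrix Expression Console, a tool named in the submitters' processing notes. Its version, background correction and summary step are not stated there, and the log base was inferred from the range of 3.31 to 14.39. The values were used as deposited, with pandas 2.3.3 in Python 3.11.15. Of 35557 probe sets, 21789 carried exactly 1 gene symbol in the platform annotation, 1621 several, and the others stay unnamed here. Symbols were updated by Entrez number with RefSeq of GRCm38.p6, which matched 21698.

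The genes and lists were chosen with earlier results of these data known. Every measured gene of the set was named, and of the regulators those not above the threshold and the 6 with the largest SD. No test across genes or groups was run, because the 3 samples form 1 group. The counting steps were tested on simulated data with known answers, in which high and low genes lay far from the threshold. That check does not cover values near the threshold or values identical across arrays. The number of arrays limits the precision. The protein identity planned within gene families was not run.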

Additional observations from a re-analysis of the deposited data

How the results depend on the processing

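Of 72 alternative counts, 65 were within 1.5 times the main count. The 7 striated muscle genes above the threshold became 12 at the 90th percentile of the silent probe sets and 1 at the 99th, and the other classes, the whole set and the regulators stayed within 1.5 times under every alternative run. With 1 sample left out, 40 to 41 genes of the set were above the threshold. The 5 genes with a range over 0.5 became 14 at a range over 0.3 and 0 at a range over 1, and 1 to 5 with 1 sample left out. The count of 21 genes lowest in sample 2, a result and alternatives chosen after the data were seen, was 21 of 22 with arrays centred on their medians, 24 of 26 without a filter on low values, 20 of 23 with the dimmest probe set of each gene, and 15 of 22 when sample 2 had to be lower by over 0.1. Sample 2 was below sample 1 in 25 of 26 genes that differed and below sample 3 in 29 of 30. Allowing 1 mismatch raised the genes with a CArG box from 11 to 24. Taking the dimmest probe set lowered Myh9 from 11.08 to 8.03 and Tpm3 from 11.98 to 8.61, both still above the threshold. Values identical across arrays hide the true spread of many genes, and values within 1 of the threshold are close to background.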
